A study of Mus musculus with 2 samples.

Results

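Mir107, Mir103-2 and Mir103-1 are microRNA (miRNA) genes that each lie in an intron of a pantothenate kinase gene. They were taken by symbol from the 1973 miRNA genes of the deposited tables, and all 3 were present. The tables come from small RNA libraries of the facial prominences of B6NCrl mouse embryos at embryonic day 10.5, the outgrowths from which the face and jaws form. The series holds 1 group of 2 biological replicates, replicate 2 from 51 embryos and replicate 1 from 69 embryos, each a pool of males and females in normal health with no treatment. There is no second tissue, stage or treatment, so the comparisons are between the hairpins and between the pools. With 2 pools no exact test of a level over samples can reach 0.05.

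A miRNA hairpin is cut into a pair of short strands, called 5p and 3p. One of them guides Argonaute to messenger RNAs, mainly through its seed, bases 2 to 8. In miR-103 and miR-107 the 3p strand is the usual guide. In mouse liver and fat these miRNAs are known as regulators of insulin sensitivity, and in cultured cells they are known to lower Dicer, the enzyme that cuts hairpins into mature miRNAs. The host enzymes, pantothenate kinases, carry out the first step of coenzyme A synthesis.

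The mature strands are shown because they decide which reads can be assigned to which gene. They are the RefSeq entries for GRCm38.p6, the same build as mm10, written 5′ to 3′ with the seed in capitals, and all 3 genes matched.
miR-107-3p: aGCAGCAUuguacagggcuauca
miR-103-3p: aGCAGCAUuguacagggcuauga
miR-107-5p: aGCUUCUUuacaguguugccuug
miR-103-2-5p: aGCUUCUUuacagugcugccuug
miR-103-1-5p: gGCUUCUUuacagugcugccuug
The 3p strand of Mir103-2 and that of Mir103-1 are the same 23 bases. miR-107-3p differs from them by the single change G22C, with the base of miR-103-3p first and positions counted from 1 at the strand's 5′ end. The 5p strands differ by C16U between miR-103-2-5p and miR-107-5p, and by G1A between miR-103-1-5p and miR-103-2-5p. All 3 genes have the 3p seed GCAGCAU and the 5p seed GCUUCUU. Among 1738 mature strands in the RefSeq table, no other gene had either seed.

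The copies also sit alike in their hosts. Mir107 lies on the minus strand of chromosome 19 (34820687 to 34820773), in intron 5 of Pank1. Mir103-2 lies on the plus strand of chromosome 2 (131288052 to 131288137), in intron 5 of Pank2. Mir103-1 lies on the plus strand of chromosome 11 (35782396 to 35782481), in intron 5 of Pank3. Each host transcript used for these positions has 7 exons, and the miRNA has the direction of its host. In GENCODE M21 the hairpins were intronic in every coding host transcript that spans them, which is 3 for Pank1, 2 for Pank2 and 1 for Pank3. Mir107 starts 326 bases after the upstream exon of an intron of 7282 bases, Mir103-2 starts 454 bases after it in an intron of 5801 bases, and Mir103-1 starts 688 bases after it in an intron of 1740 bases. No other gene is annotated over the hairpins, and the nearest other miRNA gene in the tables was at least 70074 bases away.

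**Figure D1:**
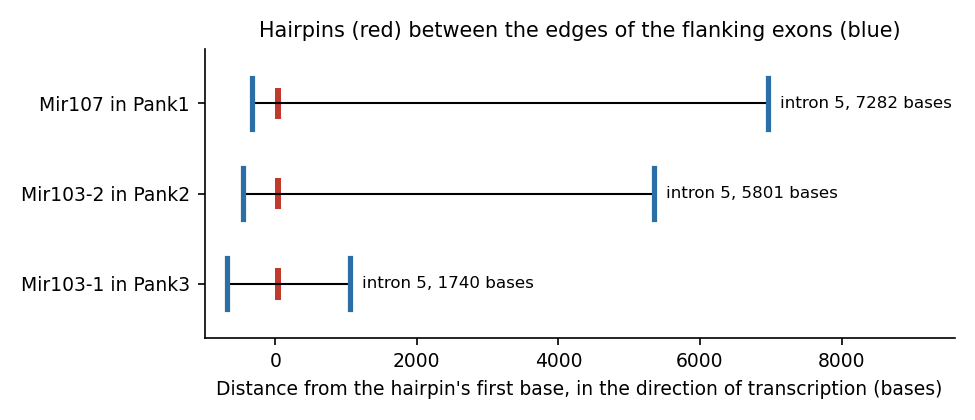
Place of each hairpin in intron 5 of its host gene, with distance in bases along the axis, the hairpin in red and the edges of the flanking exons in blue. Each hairpin lies within 688 bases of the upstream exon, while the distance to the downstream exon is 6869 bases in Pank1, 5261 in Pank2 and 966 in Pank3.

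Around the 3p strand both Mir103 hairpins are alike for longer than the mature strand itself, and Mir107 departs from them within it. The 30-base stretches below start 3 bases before the 3p strand and end 4 bases after it, on the strand of the gene, with capitals at positions where the 3 hairpins are not all alike.
Mir107, chr19:34820696-34820725, minus strand: ucaagcagcauuguacagggcuauCaaAgC
Mir103-2, chr2:131288100-131288129, plus strand: ucaagcagcauuguacagggcuauGaaAgA
Mir103-1, chr11:35782444-35782473, plus strand: ucaagcagcauuguacagggcuauGaaGgC
A read that starts at base 1 of the 3p strand is the same for all 3 genes up to 21 bases. From 22 bases on, a Mir107 read is found in no other of the 1005 hairpins of the RefSeq table, on either strand. The Mir103-2 and Mir103-1 reads stay alike up to 24 bases, which is longer than the mature strand, and are told apart from 25 bases on. The tables list reads that map to several places on a summary line apart from the genes, 2236310 reads (25.9%) in replicate 2 and 1883496 reads (27.6%) in replicate 1. Each of the 3 count columns, summary lines included, comes to one read total per library, so that line was read as reads counted at no gene. The aligner's rule for calling a read so is not stated, and the files do not say how many of these reads were miR-103. By sequence, a mature miR-107-3p read fits Mir107 alone among the hairpins, while a mature miR-103-3p read of 22 to 24 bases fits both Mir103 genes.

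**Figure D2:**
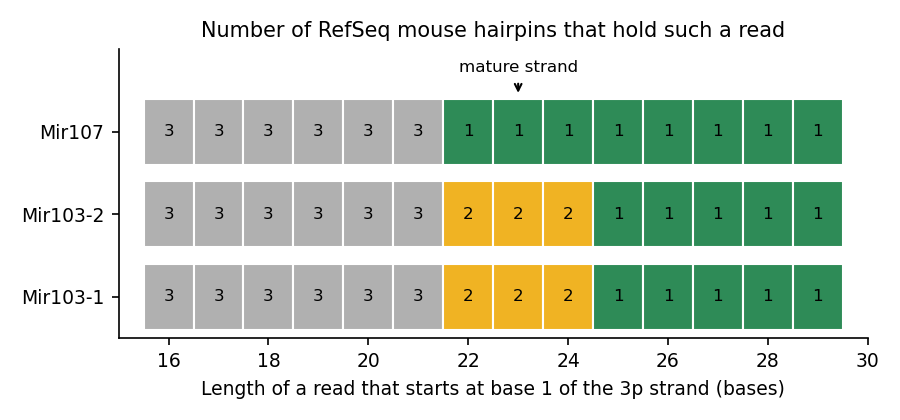
Number of mouse hairpins in the RefSeq table that hold a read starting at base 1 of the 3p strand, by the length of the read in bases, for each gene. Mir107 becomes distinct at 22 bases, before the mature length of 23, and both Mir103 genes become distinct only at 25 bases.

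The 5p strands leave more room. The stretches below start 4 bases before the 5p strand and end 3 bases after it, with the same use of capitals.
Mir107, chr19:34820734-34820763, minus strand: UUucAgcuucuuuacagugUugccuuguGg
Mir103-2, chr2:131288062-131288091, plus strand: UUucAgcuucuuuacagugCugccuuguAg
Mir103-1, chr11:35782406-35782435, plus strand: CCucGgcuucuuuacagugCugccuuguUg
A read that starts at base 1 of the 5p strand was distinct for each gene at 16 bases, the shortest length examined. One base later, the Mir103-2 and Mir103-1 reads were alike up to 23 bases. Over the whole hairpin, Mir107 was identical to Mir103-2 at 84.9% of the first 86 bases and to Mir103-1 at 80.2%, and Mir103-2 to Mir103-1 at 80.2%. Of all 22-base windows, 92.4% of those in Mir107, 84.6% in Mir103-2 and 87.7% in Mir103-1 were found in no other hairpin of the table. Matches outside annotated hairpins were not examined.

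Mir107 held nearly all the counts of the 3 genes. Mir107 had 4088 counts in replicate 2 and 4060 in replicate 1, which is 1162 and 1423 CPM (counts per 1000000 counts on the strand of any miRNA gene). Its mean level was 1293 ± 184 CPM (SD, n = 2). Mir103-2 had 420 counts in replicate 2 and 347 in replicate 1, or 119 and 122 CPM, with a mean of 121 ± 1.55 CPM (SD, n = 2). Mir103-1 had 17 counts in replicate 2 and 17 in replicate 1, or 4.83 and 5.96 CPM, with a mean of 5.40 ± 0.795 CPM (SD, n = 2). The order Mir107, Mir103-2, Mir103-1 was the same in both libraries, and no library of one gene came near a library of the next. For Mir107 the exact Poisson 95% interval ran from 1127 to 1198 CPM in replicate 2 and from 1379 to 1467 CPM in replicate 1, and for Mir103-1 from 2.82 to 7.74 CPM and from 3.47 to 9.54 CPM. Even the lowest of these bounds lies above 3 counts, up to which a true level is compatible with a count of 0 (0.853 CPM in replicate 2, 1.05 CPM in replicate 1). All 3 genes passed the minimum of 10 counts in each library. No read was counted on the opposite strand of any of the 3 genes in either library. Intervals on counts cover counting error only, since PCR copies are not separate molecules. Small RNA libraries also favour some sequences, so the levels are levels of reads per hairpin, with both arms summed.

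**Figure D3:**
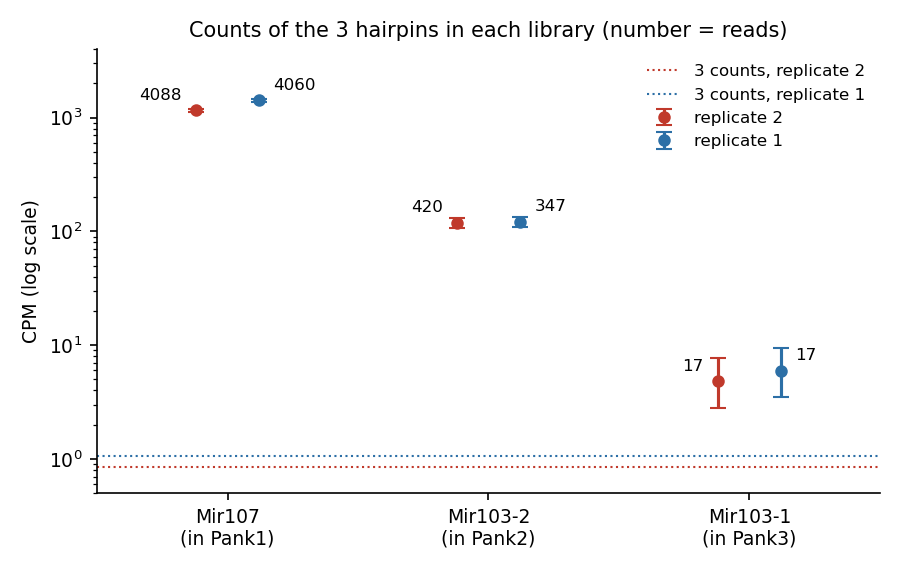
CPM on a log scale for the 3 genes in replicate 2 (red) and replicate 1 (blue), with exact Poisson 95% intervals as bars and the read count beside each point; dotted lines mark 3 counts. Mir107 sits at 1162 and 1423 CPM, Mir103-2 at 119 and 122 CPM, and Mir103-1 at 4.83 and 5.96 CPM.

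Mir107 had 9.73 times the counts of Mir103-2 in replicate 2 (exact 95% interval 8.80 to 10.8) and 11.7 times in replicate 1 (10.5 to 13.1). Against Mir103-1 its counts were 240.5 times as high in replicate 2 (150 to 413) and 239 times in replicate 1 (149 to 410). Mir103-2 had 24.7 times the counts of Mir103-1 in replicate 2 (15.2 to 42.8) and 20.4 times in replicate 1 (12.6 to 35.4). The intervals of each ratio overlapped between the libraries, and no interval reached below 8.80. Overlap does not show that the ratios were equal, and their difference between the libraries was not tested. Of the counts of the 3 genes, Mir107 took 90.3% in replicate 2 (Clopper-Pearson 95% interval 89.4 to 91.2) and 91.8% in replicate 1 (90.9 to 92.6). Mir103-2 took 9.28% and 7.84%, and Mir103-1 took 0.376% and 0.384%. These proportions describe reads that could be placed. They are not read as proportions of mature miR-107 and miR-103, because reads that fit both Mir103 genes would be absent from the counts if they were set aside as mapping to several places.

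In the whole profile Mir107 stood at rank 100 of 1973 genes in replicate 2 and 93 in replicate 1, and Mir103-2 at rank 205 in both. Mir103-1 stood at rank 351 in replicate 2 and 346 in replicate 1, where 376 genes had at least 10 counts in each library. The median level of those 376 genes was 164 CPM, below Mir107 and above both Mir103 genes. Among 654 miRNA genes that lie in an intron of a coding gene on its strand, 141 were detected, with a median of 87.3 CPM. By mean CPM, Mir107 ranked 33, Mir103-2 66 and Mir103-1 124 among these intronic genes.

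The Mir103 pair can be set beside other duplicated miRNA genes. RefSeq gives 83 matched genes a mature strand that is identical at another locus, and the 44 detected among them had a median of 71.9 CPM. Of the 786 genes with no such copy, 279 were detected, with a median of 205 CPM. Detected genes were 53.0% of the duplicated genes and 35.5% of the others, so these medians cover unlike parts of the sets. Mir103-2 ranked 16 and Mir103-1 ranked 43 among the 83 duplicated genes. In 22 pairs with at least 20 counts over both libraries, the lower copy held a median of 15.5% of the pair's counts. The range was 0.952% to 45.2%. Pairs were set by any shared mature strand, so a gene can be in more than 1 pair. Mir103-1 held 4.24% of the counts of its pair, and 2 pairs were more uneven, Mir194-2 with Mir194-1 and Mir181b-2 with Mir181b-1. Among pairs in introns of paralogous genes, Mir218-1, in Slit2, held 10.2% of its pair in replicate 2 and 14.7% in replicate 1, against 3.89% and 4.67% for Mir103-1. Mir26a-1 held 27.9% in replicate 2 and 13.9% in replicate 1, and Mir128-2 held 12.2% and 17.1%. Mir199a-1, on the strand opposite a dynamin gene, held 3.99% and 7.01%. Mir208a, whose mature strands are similar to those of Mir208b and not identical, held 10.4% and 17.4%. The Mir103 pair was thus among the more unevenly counted of the 22 pairs in counts summed over both libraries, with no test made of that position. In replicate 2 its share was close to that of Mir199a-1.

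The pools were compared gene by gene with a two-sided exact binomial test and Benjamini-Hochberg adjustment over the 449 genes with at least 10 counts in all. This asks whether the libraries differ beyond counting error, not whether a condition does. In that comparison 40.3% of tested genes passed the threshold of 0.05, and 20.3% passed with a lower level in replicate 2. Of the 3 genes, Mir107 passed and was lower in replicate 2, with a log2 ratio of replicate 2 over replicate 1 of -0.29 (exact 95% interval -0.35 to -0.23, adjusted p = 4.9e-19 by the exact binomial test). Its 4088 and 4060 counts are nearly equal, while the totals were 3517226 counts in replicate 2 and 2853511 in replicate 1. Mir107 thus held a smaller share of all counts in replicate 2. Mir103-2 had a log2 ratio of -0.03 (-0.23 to 0.18) and an adjusted p of 0.89 by the exact binomial test. Mir103-1 had a log2 ratio of -0.28 (-1.36 to 0.76) and an adjusted p of 0.75 by the exact binomial test. With 17 counts in each library, a change of Mir103-1 as large as that of Mir107 was not detectable at this depth. A call was thus common in these libraries. Of the 320 genes that averaged 10 CPM or more, 33.75% had a log2 ratio farther from 0 than that of Mir107, and 93.75% one farther from 0 than that of Mir103-2. The median over the 449 tested genes was 0.01.

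Some genes of the tissue layers were lower in replicate 2 as Mir107 was, and others were not. The 7 epithelial markers summed to 23965 CPM in replicate 2 against 28691 CPM in replicate 1. Of these, 6 of 7 passed as lower in replicate 2, where 20.3% of all tested genes did. Mir200c did not pass (log2 ratio -0.02). The 7 are abundant genes, with 3329 counts or more over both libraries, so small ratios pass, such as that of Mir141 (-0.16). The 7 markers of mesenchyme and neural crest summed to 27041 CPM in replicate 2 against 30706 CPM in replicate 1. Of these, 4 of 7 passed as lower, beside the same 20.3% of all tested genes. Mir199a-1, Mir199a-2 and Mir145a did not pass, at log2 ratios of -0.71, 0.12 and -0.17. Mir126a, the endothelial marker, was higher in replicate 2, at 34369 against 31642 CPM. The 3 erythroid markers summed to 205 CPM in replicate 2 against 420 CPM in replicate 1, a difference that came from Mir451a (143 against 359 CPM). Mir144 and Mir486 did not pass, at log2 ratios of -0.16 and 0.32. None of these lists had a member at 0 in both libraries, and their part in the Mir107 result was not tested. In whole tissue, fewer cells of a type and less RNA per cell cannot be told apart. Markers of the labelled tissue were abundant, with Mir205 of surface epithelium at 9187 ± 710 CPM and Mir214 of mesenchyme at 14538 ± 1041 CPM (SD, n = 2). The lists of other tissues had lower sums of placed reads than the epithelial and mesenchymal lists. Mir9-1, Mir1a-2 and Mir142 had no matched gene and are missing from these sums. Mir128-1 and Mir128-2 of the neural list share an identical mature strand, as do Mir194-1 and Mir194-2 of the liver list. Reads that fit both copies may be missing, so a low sum does not show that a tissue was absent. The liver list summed to 149 CPM in replicate 2 against 158 CPM in replicate 1, the striated muscle list to 131 and 80.6 CPM with 2 of 8 matched members at 0 in both libraries, the leukocyte list to 422 and 433 CPM, and the neural list to 713 and 800.4 CPM. Some of their members were above the median of detected genes, namely Mir137 of the neural list at 636 ± 62.0 CPM and Mir223 and Mir155 of the leukocyte list at 249 ± 5.91 and 175 ± 12.6 CPM (SD, n = 2). In the neural list 2 of 6 tested genes passed as higher and 2 as lower in replicate 2, where 40.3% of all tested genes passed. In the muscle list, with 4 genes tested, Mir208b was higher (log2 ratio 1.38) and Mir206 lower (-1.28). In the liver and leukocyte lists, with 3 genes tested in each, no gene passed (0 also at an unadjusted p under 0.05, exact binomial test).

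**Figure D4:**
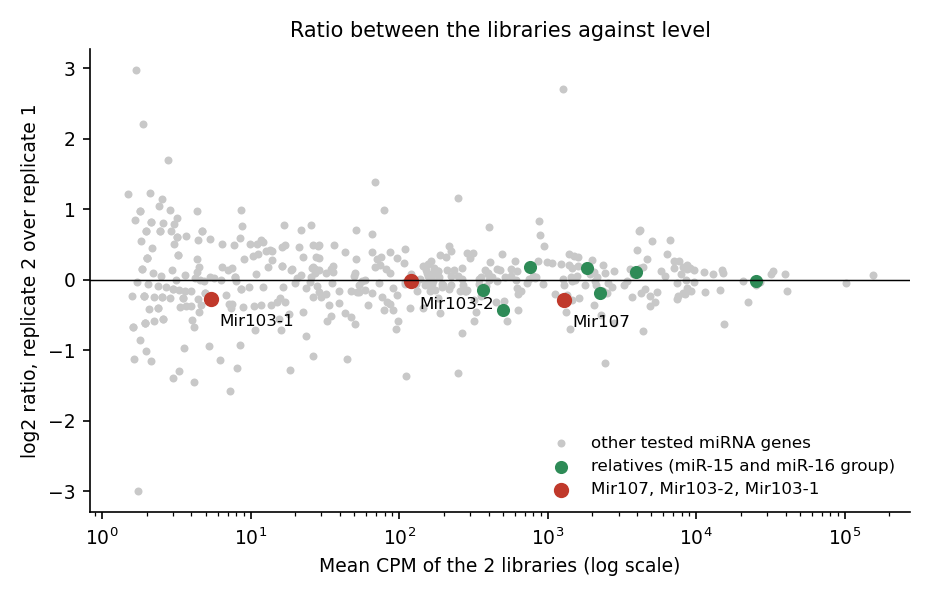
Log2 ratio of replicate 2 over replicate 1 against mean CPM on a log scale, for 449 tested genes (grey), the miR-15 and miR-16 relatives (green) and the 3 Pank intron genes (red). Mir107 lies at -0.29, Mir103-2 at -0.03 and Mir103-1 at -0.28, all within the spread of the other genes.

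miR-103 and miR-107 belong to a larger group of miRNAs, with miR-15 and miR-16, that carry AGCAGC near the 5′ end and are known for overlapping targets in the cell cycle and metabolism. The strands are shown with AGCAGC in capitals, because its position differs from that in miR-107.
miR-15a-5p: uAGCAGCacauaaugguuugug
miR-15b-5p: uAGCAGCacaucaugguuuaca
miR-16-5p: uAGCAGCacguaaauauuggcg
miR-195a-5p: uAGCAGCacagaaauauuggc
miR-322-5p: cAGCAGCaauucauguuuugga
miR-503-5p: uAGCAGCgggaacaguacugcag
In these strands AGCAGC starts at base 2, and in miR-107-3p and miR-103-3p at base 1, so the seeds are AGCAGCA or AGCAGCG here and GCAGCAU there. Of the 1738 mature strands, 15 (0.863%) hold AGCAGC in their first 7 bases.

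Mir107 stood in the middle of this group. RefSeq has 12 other genes with AGCAGC there, of which 11 matched a gene in the tables and 7 were detected. The list of relatives used here has 11 genes. It holds Mir497b, whose own mature strand lacks AGCAGC in its first 7 bases, and it lacks Mir6353 and Mir6419, which had no count in either library. Mir322, a growth regulator on the X chromosome, was the highest at 25169 CPM in replicate 2 and 25602 CPM in replicate 1. Mir15a, Mir16-1 and Mir15b were also above Mir107 in both libraries, at 3938 ± 212, 2248 ± 207 and 1836 ± 145 CPM (SD, n = 2). Mir503, Mir16-2 and Mir195a were below it, at 759 ± 65.4, 499 ± 105 and 369 ± 26.9 CPM. All 7 were above Mir103-2 and Mir103-1 in both libraries. Mir16-1 and Mir16-2 share an identical mature strand, as the Mir103 genes do, so reads that fit both copies may be missing from their counts. This order is thus one of placed reads, and genes with and without such a copy are not measured alike. Between the pools all 7 detected relatives passed the test, 3 higher and 4 lower in replicate 2, where 40.3% of all tested genes passed. The 7 are abundant genes, with 2340 counts or more over both libraries, and had a median log2 ratio of -0.02. Mir16-2 had the lowest ratio, -0.43, and Mir503 the highest, 0.18. Mir107, at -0.29, lay inside that range, and the difference between Mir107 and its relatives was not tested. Mir195b and Mir6342 had no count in either library. Mir497b had 5 counts in replicate 2 and 1 in replicate 1, with 2050 and 1574 reads on its opposite strand, where GENCODE M21 places Mir497. Mir497 is the relative with no matched gene in the tables. Those reads were not assigned to it, and it is not among the 7 detected or in their order.

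**Figure D5:**
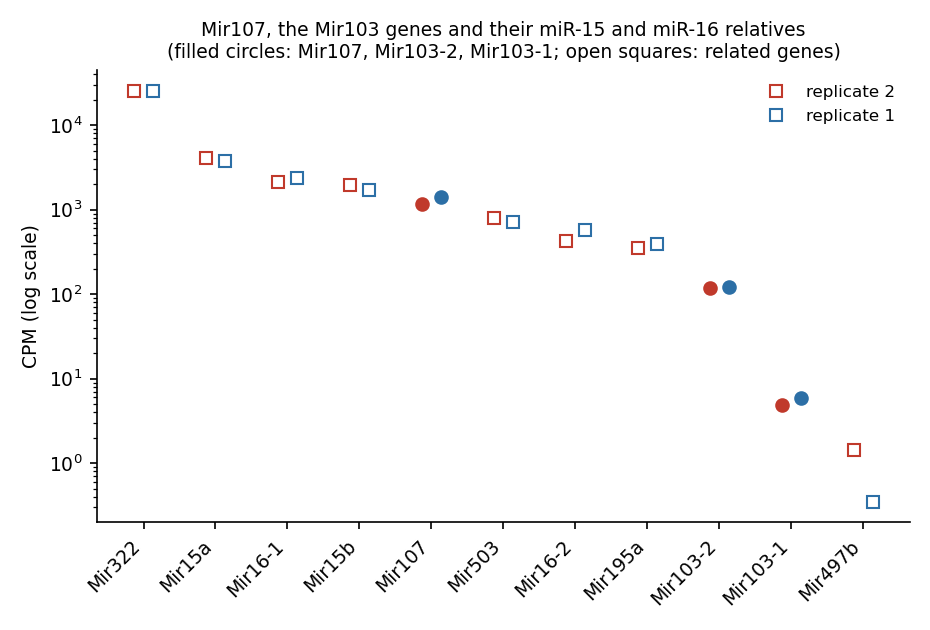
CPM on a log scale for Mir107, the Mir103 genes and their relatives with counts in both libraries, replicate 2 in red and replicate 1 in blue, the 3 Pank intron genes as filled circles and the others as open squares. Mir107 falls between Mir15b and Mir503, and both Mir103 genes fall below Mir195a.

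Other miRNAs studied in lipid, glucose and insulin regulation were spread widely, and several were far above Mir107. Mir335 had 157233 CPM in replicate 2 and 150559 CPM in replicate 1, rank 1 of all genes by mean CPM. Mir130a and Mir26b averaged 31887 and 27033 CPM. Of 24 listed genes, 23 matched and 18 were detected, and of 19 tested 4 were higher and 4 lower in replicate 2, a share near the 40.3% of all tested genes, with a median log2 ratio of 0.06. Mir33, in a sterol regulator gene and known to restrain cholesterol export, had 99.2 CPM in replicate 2 and 75.3 CPM in replicate 1, below Mir103-2 in both. Mir375, of endocrine cells, had 1489 and 1289 CPM, above Mir107 in replicate 2 and below it in replicate 1, and was higher in replicate 2 with a log2 ratio of 0.21 (adjusted p = 9.7e-11, exact binomial test). Mir122, the main miRNA of liver, had 15.4 and 12.6 CPM, and Mir802 had no count.

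Over both libraries, the genes nearest to Mir107 in log2 CPM were Mir27b (1349 ± 142 CPM), Mir199b (1330 ± 295 CPM) and Mir25 (1287 ± 47.3 CPM; SD, n = 2). Those nearest to Mir103-2 were Mir30c-1 (121 ± 4.84 CPM), Mir384 (131 ± 3.74 CPM) and Mir24-2 (110 ± 1.71 CPM). Those nearest to Mir103-1 were Gm24187 and Gm25745, each at 4.90 ± 0.50 CPM, and Mir3060 (5.33 ± 0.103 CPM). This is a nearness in level of placed reads in 2 libraries of 1 tissue. Mir30c-1 shares an identical mature strand with Mir30c-2, so reads that fit both may be missing from its count.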

How the data were processed

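Small RNA of total RNA, with inserts under 30 nt per the labels, was sequenced from 2 pools of embryonic facial prominences. The tables deposited by the authors hold raw counts of reads per miRNA gene, aligned to mm10 and annotated with GENCODE M4, as the accompanying text files state. No source used here names the aligner or the library protocol. In all 1973 genes the first count equals the sum of the counts on the gene's strand and on the opposite strand, and 4 summary lines hold the reads with no gene. The counts on the gene's strand were used, 97.6% of gene reads in each library. Totals were 3517226 counts in replicate 2 and 2853511 in replicate 1. In these libraries 24.1% and 21.6% of reads were unmapped, and 9.32% and 9.01% lay outside annotated genes. Over genes, the chi-square of the 2 libraries was 51.2 for each degree of freedom, and they were kept as separate replicates.

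Symbols and introns came from GENCODE M21 by identifier without version (1894 of 1973 matched; the rest had at most 3 counts each), and sequences from RefSeq. CPM used the total over all genes. Log2 ratios had a pseudocount of 0.5 CPM, and their intervals none. Tests and intervals were made with SciPy 1.17.1. edgeR 4.0.16 and DESeq2 1.42.0 gave alternative library sizes only. The binomial test was tested on simulated counts with counting error only, where 1 of 327 unchanged genes and 45 of 64 genes with a 2-fold change passed. These libraries differed by more than counting error, so the simulation does not show how often the test passes a gene here. Named genes are the 3 members, the members of the lists, and the 3 nearest genes to each member; Mir194 and Mir181b pairs were chosen after their values were seen. Members and lists were chosen with earlier results of these data known.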

Additional observations from a re-analysis of the deposited data

How the results depend on the processing

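In the 26 alternatives run for the log2 ratios, each kept its direction and its side of the threshold of 0.05. Other pseudocounts could change neither, since the test does not use them and they cannot turn a ratio around. Another minimum of counts could not change the direction. The 7 for the number of genes that differ gave 169 to 186, and the 9 for shares moved none by more than the SD of the libraries. Of the 21 for levels, 7 moved one by more than that SD. Mir103-1, with 34 counts in all, was not tested under a minimum of 50. With all reads of the table as library size, the mean levels were 534 CPM for Mir107, 49.7 CPM for Mir103-2 and 2.23 CPM for Mir103-1, and without the 10 highest genes in the library size they were 2590.3, 241 and 10.8 CPM. Both follow from the size of the divisor and leave the order as it was. The unstranded count, whose total is larger, gave 118 CPM for Mir103-2. Leaving out a library gave 1162 to 1423 CPM for Mir107, 119 to 122 CPM for Mir103-2 and 4.83 to 5.96 CPM for Mir103-1. For levels too, this step could not move a mean by more than the SD. No paired analysis was possible because the series holds 1 group. The depth of 17 counts per library limits Mir103-1, and reads that fit both Mir103 genes may be missing from the counts, since the rule for reads mapping to several places is not stated.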
